A study of Homo sapiens with 4 samples.

Results

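The genes described here are the 10 that carry cystine into the cell, turn it into glutathione, recycle or break down that glutathione, and reduce peroxides. They are the transporter subunits SLC7A11 and SLC3A2, the synthesis enzymes GCLC, GCLM and GSS, the reductase GSR, the degrading enzyme CHAC1 and the peroxidases GPX4, GPX1 and GPX8. Members were chosen by gene symbol, and all 10 were found among the 34545 symbols of the count table. All 10 also passed the filter on low counts, with 15302 genes tested in all.

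The study sequenced RNA from 4 libraries labelled as the colorectal cancer line DLD-1 with genotype WT. Of these, 2 were labelled Ctrl and 2 Creatine, and the treatment is the only label that differs between them. Dose, duration and vehicle are not given in the labels, nor whether libraries of a group came from separate cultures. P-values therefore speak only of how these 4 libraries scatter, a scatter that could be technical, and an exact two-sided permutation test of 2 against 2 cannot go below 0.333. The study's title ties creatine uptake to ferroptosis, the iron-dependent death by lipid peroxidation that this pathway holds back.

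Cystine enters the cell in exchange for glutamate through system xc-, in which SLC7A11 is the transporting subunit and SLC3A2 the chaperone subunit. Once inside, cystine is reduced to cysteine. The ligase made of GCLC and GCLM joins cysteine to glutamate in the rate-limiting step, and GSS adds glycine to give glutathione. GPX4 uses glutathione to reduce lipid peroxides within membranes, which is why loss of cystine, of glutathione or of GPX4 leads to ferroptosis. GSR returns oxidised glutathione to its reduced form with NADPH, and CHAC1 cleaves glutathione in the cytosol.

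The 4 libraries held between 48249693 and 59860043 counts, so a floor of 3 counts lay between 0.0501 and 0.0622 counts per 1000000 counts of the library (CPM), far below every member. Markers of the labelled tissue were nearly absent. All 12 colon epithelium genes examined, among them EPCAM, CDX2 and VIL1, were under 1 CPM in every library. In contrast 10 of 11 mesenchymal genes had a mean over 10 CPM. The summed level of the mesenchymal list was 7147 to 7274 CPM in controls and 6452 to 6565 CPM with creatine. None of 8 fibroblast genes reached a mean of 10 CPM, and the immune and endothelial lists each had 1 that did, CD68 and TIE1. Both were lower with creatine (log2 change -0.23 and -0.27, adjusted p = 0.0179 and 0.0052), as was the mesenchymal gene MMP14 (-0.23, adjusted p = 0.00654), while ZEB1 was higher (0.41, adjusted p = 0.00133). With GC and length trends removed none of these 4 passed. The part of these differences in the results below was not tested, and the libraries are called by their labels. In bulk RNA, fewer cells of a type and less RNA per cell cannot be told apart.

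Promoter windows of 3 members are shown because they carry the letters by which stress factors are known to recognise this pathway. CHAC1 is a target of ATF4, the factor of amino acid shortage, and GCLM is a target of NRF2, the factor of oxidative stress. SLC3A2, the partner of SLC7A11, holds both kinds of letters. Each window runs 5′ to 3′ from 250 bases before the RefSeq start to 50 bases after it, on GRCh38.p14. Capitals mark the antioxidant response letters TGACNNNGC and the amino acid response letters TGATGNAA, each searched on both strands. No position of one match overlapped another.
CHAC1, chr15:40953221-40953520, plus strand: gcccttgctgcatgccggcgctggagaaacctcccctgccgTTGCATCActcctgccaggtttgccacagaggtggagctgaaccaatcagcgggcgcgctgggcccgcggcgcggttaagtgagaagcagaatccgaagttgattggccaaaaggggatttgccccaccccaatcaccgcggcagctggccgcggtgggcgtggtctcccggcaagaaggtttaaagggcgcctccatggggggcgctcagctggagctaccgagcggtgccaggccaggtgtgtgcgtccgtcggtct
GCLM, chr1:93909381-93909680, minus strand: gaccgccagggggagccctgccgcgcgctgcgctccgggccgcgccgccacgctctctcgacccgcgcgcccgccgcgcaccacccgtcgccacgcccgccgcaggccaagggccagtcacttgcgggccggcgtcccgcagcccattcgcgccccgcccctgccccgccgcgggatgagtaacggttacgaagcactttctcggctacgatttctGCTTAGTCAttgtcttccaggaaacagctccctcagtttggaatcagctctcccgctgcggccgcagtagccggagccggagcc
SLC3A2, chr11:62881449-62881748, plus strand: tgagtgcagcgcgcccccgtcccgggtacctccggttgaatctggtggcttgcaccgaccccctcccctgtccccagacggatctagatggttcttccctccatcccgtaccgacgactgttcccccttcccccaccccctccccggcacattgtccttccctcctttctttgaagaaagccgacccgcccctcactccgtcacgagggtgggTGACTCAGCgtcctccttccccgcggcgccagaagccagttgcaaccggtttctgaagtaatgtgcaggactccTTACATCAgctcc

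In these windows CHAC1 has its amino acid response letters starting 209 bases before the start, and GCLM its antioxidant letters 34 bases before it. SLC3A2 has antioxidant letters 37 bases before one of its 3 listed starts and amino acid response letters within the transcribed part. Of the 7 members with an entry in the promoter table, GPX8 also matched the amino acid response letters, and GCLC, GPX4 and GPX1 matched neither. SLC7A11, GSS and GSR had no entry. Of all 35116 promoter windows of the same length, 13.3% held the antioxidant letters and 3.62% the amino acid response letters. Counted by gene, with a match in any listed window, the shares were 16.1% and 4.46% of 27305 genes. A match describes letters in a window, not binding.

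SLC7A11 rose with creatine and, with all 4 libraries and no trend removed, was the only member to change by more than 0.4 on the log2 scale. With trends on GC content and gene length removed from each library, its log2 change was 0.28, and that of GSR was larger in size, at -0.35. SLC7A11 (chromosome 4, 138164097 to 138242349, GRCh38) stood at 124 and 118 CPM in control libraries 1 and 2, and at 178 and 164 CPM in creatine libraries 1 and 2. Both creatine libraries lay above both controls, and libraries of a group differed by 1.05-fold and 1.09-fold. The group means were 121 ± 4.08 and 171 ± 9.94 CPM (SD, n = 2 each). This was a 1.41-fold rise, a log2 change of 0.50 (SE 0.07, 95% interval 0.35 to 0.65). It passed edgeR's quasi-likelihood test with Benjamini-Hochberg adjustment over all genes tested (adjusted p = 0.000146), and the DESeq2 test (adjusted p = 1.25e-08). The gene shares 865 of its 9645 exon bases with the antisense gene SLC7A11-AS1, which had 0, 0, 6 and 12 counts in the 4 libraries. Without a stated strand setting, reads of the 2 genes over those bases cannot be told apart.

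Its partner SLC3A2, which also serves other amino acid transporters (chromosome 11, 62856102 to 62888875), was at the same level in all 4 libraries within 5%. SLC3A2 stood at 560 and 586 CPM in controls and at 582 and 573 CPM with creatine, so the groups overlapped. The log2 change was 0.01 (SE 0.06, 95% interval -0.12 to 0.14, adjusted p = 0.936). With the trends on GC content and gene length removed from each library it was 0.20 (95% interval 0.08 to 0.31, adjusted p = 0.0845). Per base of transcript, SLC3A2 was the more abundant subunit, with 8.43 and 9.26 times the CPM per kilobase of gene length (FPKM) of SLC7A11 in controls. With creatine that ratio was 6.10 and 6.51, below both controls. The ratio was computed with the trends left in. With them removed, the log2 change was 0.28 for SLC7A11 and 0.20 for SLC3A2. Those values are nearer to each other than the 0.50 and 0.01 found with the trends left in.

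**Figure D1:**
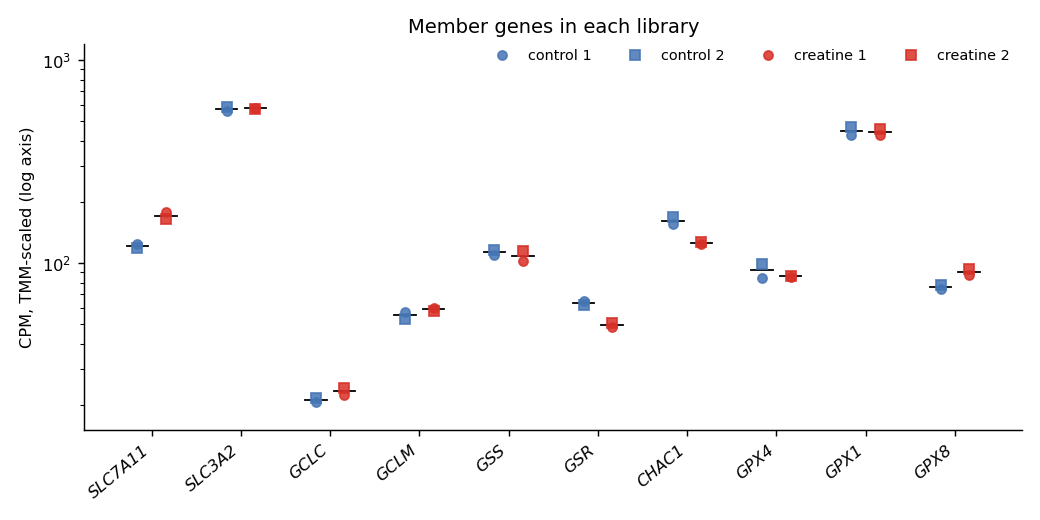
Level of the 10 members in each library, in TMM-scaled CPM on a log axis. Circles and squares are libraries 1 and 2, blue is control and red is creatine, and the black lines are group means. SLC7A11, GPX8, GCLC and GCLM are higher in both creatine libraries, though GCLC and GCLM did not pass the threshold. GSR and CHAC1 are lower in both, and the points of SLC3A2, GSS, GPX4 and GPX1 overlap. Groups did not overlap in 58.2% of all genes tested.

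No change was detected in the 3 enzymes of glutathione synthesis. GCLC, the catalytic subunit of the rate-limiting ligase (chromosome 6, 53497341 to 53616970), was at 20.6 and 21.5 CPM in controls and 22.3 and 24.1 CPM with creatine. Both creatine libraries were the higher ones, but the first of them was nearer to the controls than to the other, and the log2 change of 0.14 (SE 0.11, 95% interval -0.09 to 0.37) did not pass (adjusted p = 0.417). GCLM, the modifier subunit that raises the ligase's activity (chromosome 1, 93885205 to 93909456), was at 57.5 and 53.0 CPM in controls and 60.1 and 58.0 CPM with creatine. The creatine libraries again lay just above the controls, with a log2 change of 0.09 (SE 0.08, 95% interval -0.08 to 0.27, adjusted p = 0.487).

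GSS, which completes the tripeptide (chromosome 20, 34928433 to 34956027), was at 110 and 116 CPM in controls and 102 and 115 CPM with creatine. Its groups overlapped, and the log2 change was -0.05 (SE 0.07, 95% interval -0.21 to 0.10, adjusted p = 0.692). GCLC was the least abundant of the 10 members per length, at 2.49 ± 0.0784 FPKM in controls, and GCLM stood at 10.2 ± 0.584 FPKM (SD, n = 2 each). The GCLM to GCLC ratio of FPKM was 4.36 and 3.85 in controls and 4.21 and 3.75 with creatine, so the groups overlapped.

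Among the members, GSR, which reduces oxidised glutathione, and CHAC1, which breaks glutathione down, were both lower with creatine. GSR, the glutathione reductase on chromosome 8, stood at 65.2 and 61.9 CPM in controls and 48.2 and 50.2 CPM with creatine. Both creatine libraries were lower than both controls, by several times the gap within either group. Group means were 63.5 ± 2.30 and 49.2 ± 1.45 CPM (SD, n = 2 each), and GSR fell by 0.37 on the log2 scale (SE 0.08, 95% interval -0.54 to -0.20, adjusted p = 0.00404). Without creatine replicate 1 the log2 change was -0.34 and missed the threshold (adjusted p = 0.0516).

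CHAC1, a target of ATF4 that cleaves glutathione within the cell (chromosome 15, 40952962 to 40956519), stood at 155 and 168 CPM in controls and 124 and 127 CPM with creatine. The groups did not overlap. Means were 162 ± 9.69 and 126 ± 2.14 CPM (SD, n = 2 each), and CHAC1 fell by 0.36 on the log2 scale (SE 0.07, 95% interval -0.51 to -0.21, adjusted p = 0.00146). Per length, CHAC1 was at 5.86 and 6.69 times the FPKM of SLC7A11 in controls and 3.28 and 3.65 times with creatine. The ratio of GSR to GSS went from 0.353 and 0.318 in controls to 0.280 and 0.260 with creatine, again with no overlap. These ratios were computed with the trends on GC content and gene length left in. With those removed, the log2 change was -0.17 for CHAC1 and 0.28 for SLC7A11, both smaller in size than before. CHAC1 then missed the threshold (adjusted p = 0.139). The log2 change was then -0.35 for GSR and 0.02 for GSS.

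**Figure D2:**
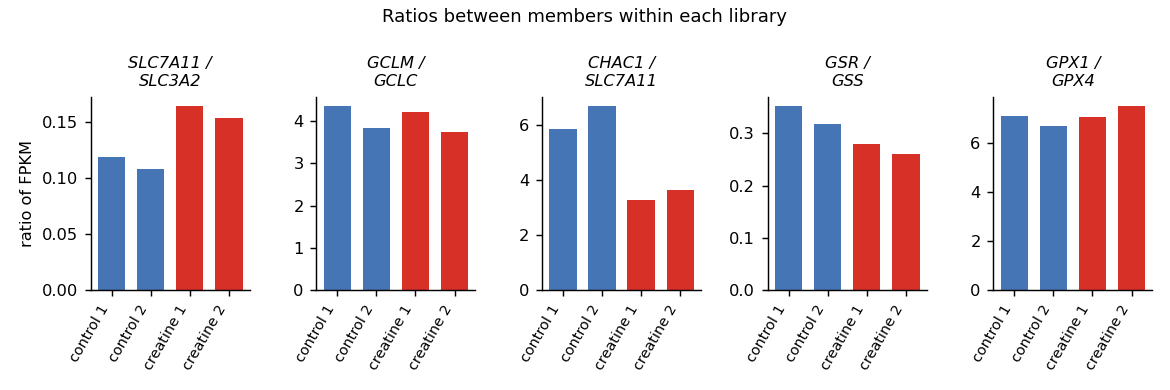
Ratios of FPKM between pairs of members within each library, with 1 bar per library, blue for control and red for creatine, and a separate vertical axis from 0 in each panel. The SLC7A11 to SLC3A2 ratio is higher in both creatine libraries (0.164 and 0.154 against 0.119 and 0.108), and the CHAC1 to SLC7A11 and GSR to GSS ratios are lower in both. The GCLM to GCLC and GPX1 to GPX4 ratios overlap between the groups. All of these ratios were computed with the GC and length trends left in.

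Among the peroxidases, a change was detected in GPX8 alone, and no test compared it with the other 2. GPX4, the selenoprotein that reduces lipid peroxides (chromosome 19, 1103926 to 1106791), stood at 84.6 and 99.2 CPM in controls and 85.6 and 85.9 CPM with creatine. The creatine libraries lay within the range of the controls, which differed from each other by 1.17-fold, the widest gap of any member. The log2 change was -0.10 (SE 0.08, 95% interval -0.27 to 0.07, adjusted p = 0.439). Without control replicate 2 the log2 change was 0.01, so the sign rested on that library.

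GPX1, the cytosolic selenoprotein that reduces hydrogen peroxide (chromosome 3, 49357171 to 49358600), stood at 425 and 469 CPM in controls and 426 and 457 CPM with creatine. The groups overlapped almost fully, with a log2 change of -0.02 (SE 0.07, 95% interval -0.16 to 0.12, adjusted p = 0.900). Its level is uncertain because the processed pseudogene GPX1P1 had reads amounting to 12.3% of those of GPX1. GPX1P1 was at 48.3 and 51.6 CPM in controls and 59.9 and 59.7 CPM with creatine (log2 change 0.26, adjusted p = 0.0315), a gene looked at because of its name.

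GPX8, a peroxidase of the endoplasmic reticulum (chromosome 5, 55160118 to 55167071), was at 74.0 and 77.5 CPM in controls and 86.9 and 93.8 CPM with creatine. Both creatine libraries were higher, with means of 75.8 ± 2.48 and 90.3 ± 4.90 CPM (SD, n = 2 each). GPX8 rose by 0.25 on the log2 scale (SE 0.08, 95% interval 0.10 to 0.41, adjusted p = 0.0215). This was the weakest of the calls, and it was lost without control replicate 1, creatine replicate 1 or creatine replicate 2 (adjusted p = 0.0703, 0.0521 and 0.255). The gene lies over CDC20B on the opposite strand but shares 0 exon bases with it.

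Per length, GPX1 made up at least 82.1% of the FPKM of all glutathione peroxidase genes in every library, GPX4 11.0% to 12.3% and GPX8 5.03% to 6.26%. The other 5 genes of the family were nearly silent. GPX5 and GPX6 had 0 counts in all libraries, GPX7 had 0 in both controls and 2 in each creatine library, and GPX2 and GPX3 were under 1 CPM. The share of GPX8 was the one that separated the groups in the higher direction, at 5.32% and 5.03% in controls and 6.17% and 6.26% with creatine. That of GPX4 was barely lower in both creatine libraries, at 11.65% and 12.33% in controls and 11.64% and 10.98% with creatine. These shares were computed with the trends on GC content and gene length left in. With those trends removed, GPX8 was at 79.6 and 84.8 CPM in controls and 80.0 and 86.6 CPM with creatine. Its groups then overlapped, and the shares were not recomputed.

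Ranked by mean FPKM, the order of the 10 members was GPX1 (312), SLC3A2 (111), CHAC1 (69.8), GSS (57.5), GPX4 (44.0), GPX8 (21.5), GSR (17.4), SLC7A11 (15.1), GCLM (10.6) and GCLC (2.62). Over the 4 libraries the ranges of most neighbours in that order did not overlap. The exceptions were GPX8 with GSR and GSR with SLC7A11. In controls GSR, at 20.1 and 19.1 FPKM, was above SLC7A11, at 12.8 and 12.2 FPKM. With creatine the order was the other way round, with GSR at 14.9 and 15.5 FPKM and SLC7A11 at 18.4 and 17.0 FPKM.

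Counted over the 10 members, 2 rose, 2 fell and 6 missed the threshold. Of all genes tested, 19.6% were called, 9.15% higher and 10.5% lower. The share was 26.4% where at least 1 CPM in 2 libraries was required, a level that every member exceeds. Groups that did not overlap were found in 6 of the 10 members and in 58.2% of all genes tested, so that pattern is near the background. The median log2 change was -0.0034 over the members and 0.01 over all genes tested.

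A trend with GC content ran through the changes of the whole data set, and members lay at different distances from it. In each library a gene's log2 CPM, relative to its mean over the 4 libraries, followed the GC content of its transcripts. The slope was 0.0819 and 0.125 log2 units per 10 points of GC in controls and -0.129 and -0.0778 with creatine. The members that were higher had low GC, 35.9% for SLC7A11 and 40.2% for GPX8, and CHAC1 had 62.6%. GSR, at 49.8%, lay in the middle of the range. GPX4 and GPX1 had 63.4% and 63.1%.

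**Figure D3:**
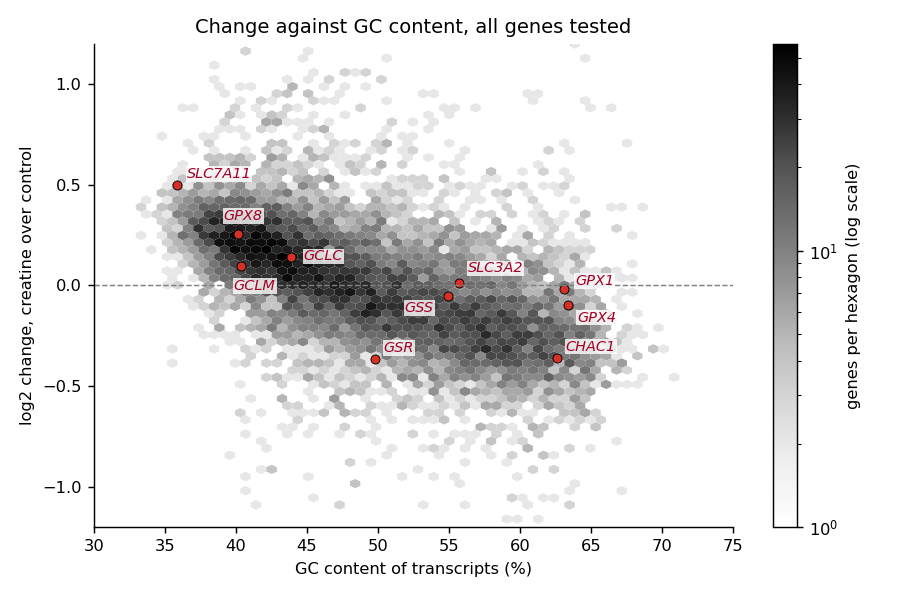
Log2 change with creatine against the GC content of transcripts for all genes tested, in grey hexagons shaded by the number of genes on a log scale, with the 10 members in red. Tested genes outside the axes, 350 in number, are not drawn. The cloud slopes down from low to high GC. With the trends on GC and length removed, GPX8 stands at 0.02, SLC7A11 at 0.28, GPX1 at 0.14, GPX4 at 0.10, CHAC1 at -0.17 and GSR at -0.35 on the log2 scale.

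The fit was repeated with the trends on GC content and gene length removed from each library, which takes away any change that follows them. It called 1.93% of all genes, 1.05% higher and 0.882% lower, and 2 members. In CPM with the trends removed, SLC7A11 was at 128 and 132 in controls and 160 and 156 with creatine, a log2 change of 0.28 (SE 0.06, 95% interval 0.16 to 0.40, adjusted p = 0.0213). The groups still did not overlap, but the change was smaller than before. After removal the groups also did not overlap in GSR, SLC3A2, GCLM, CHAC1, GPX4 and GPX1, of which only GSR passed. The share of all genes without overlap was not computed for these values. With the trend on GC content alone removed it was 0.23 and missed the threshold (adjusted p = 0.0647). With GC content read from the longest transcript and length included it was 0.30 (adjusted p = 0.0563), and without length it was 0.24 and passed (adjusted p = 0.0433).

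GSR changed little under this removal, at 64.1 and 62.0 CPM in controls and 48.8 and 50.3 CPM with creatine. Its log2 change was -0.35 (SE 0.07, adjusted p = 0.0237), and -0.35 with GC content alone (adjusted p = 0.0306). With GC content read from the longest transcript it was -0.37 both without length (adjusted p = 0.0185) and with length included (adjusted p = 0.0563), the latter in a fit that called 0.222% of all genes. Without creatine replicate 1, neither gene passed with both trends removed (adjusted p = 0.0673 for SLC7A11 and 0.0666 for GSR).

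For CHAC1 and GPX8 the call was lost with the trends removed. CHAC1 was then at 152 and 151 CPM in controls and 137 and 132 CPM with creatine. Its groups did not overlap, as was also so in SLC3A2, GCLM, GPX4 and GPX1. The log2 change of CHAC1 stood at -0.17 (95% interval -0.29 to -0.05, adjusted p = 0.139). GPX8 was at 79.6 and 84.8 CPM against 80.0 and 86.6 CPM, and its log2 change stood at 0.02 (95% interval -0.12 to 0.16, adjusted p = 0.936). SLC3A2 stood at 0.20 (adjusted p = 0.0845), GPX1 at 0.14 (adjusted p = 0.234) and GPX4 at 0.10 (adjusted p = 0.537). GPX1, GPX4, GSS and GCLM took the opposite sign. With only GC content of the longest transcript removed, GPX1 stood at 0.22 and passed as higher (adjusted p = 0.0443).

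**Figure D4:**
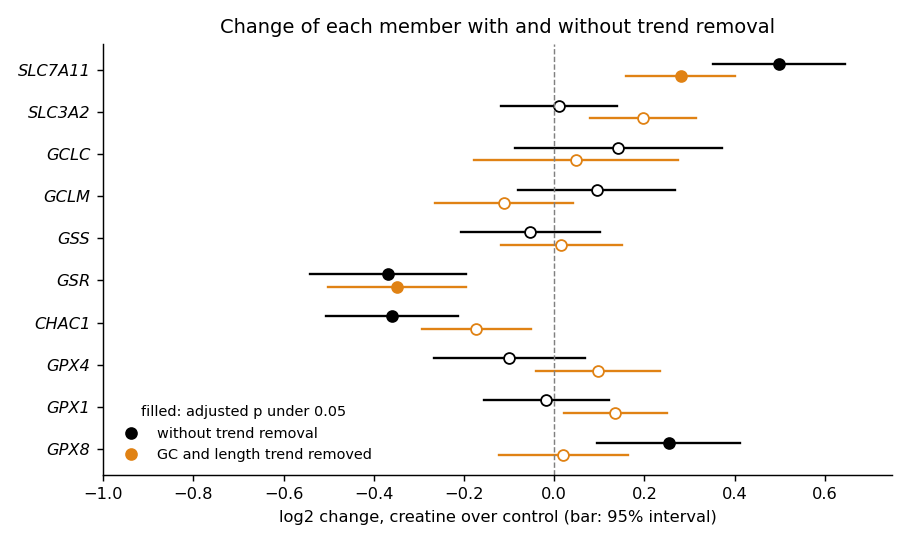
Log2 change of each member, creatine over control, with its 95% interval, before (black) and after (orange) removal of the GC and length trends. Filled points have an adjusted p under 0.05. Before removal 4 members are filled, and after it SLC7A11 (0.28) and GSR (-0.35) are.

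Amino acid carriers and enzymes that supply the pathway were higher where they changed. Of 10 tested genes of cystine and amino acid supply, 3 rose and 0 fell, against 9.15% and 10.5% of all genes, with a median log2 change of 0.03. SLC38A1, a glutamine carrier, went from 147 and 134 CPM in controls to 192 and 179 CPM with creatine, a log2 change of 0.40 (SE 0.07, adjusted p = 0.000799). CTH, which makes cysteine from cystathionine, and SLC38A2, another neutral amino acid carrier, rose by 0.29 and 0.20 on the log2 scale (adjusted p = 0.0116 and 0.0243).

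Of the amino acid supply genes that rose, SLC38A1 passed without each library in turn and with both trends removed (0.29, adjusted p = 0.0203), but CTH (0.11, adjusted p = 0.502) and SLC38A2 (-0.02, adjusted p = 0.900) did not pass with the trends removed. SLC38A1 missed the threshold with GC content alone removed (0.25, adjusted p = 0.0601) and with GC content read from the longest transcript, with length (0.28, adjusted p = 0.0648) or without it (0.22, adjusted p = 0.0756). CTH was also lost without control replicate 2, creatine replicate 1 or creatine replicate 2 (adjusted p = 0.0963, 0.0616 and 0.0758), and SLC38A2 without either creatine library (0.291 and 0.0863). SLC7A5, the other main partner of SLC3A2, was at 743 and 744 CPM in controls and 663 and 686 CPM with creatine (log2 change -0.14, adjusted p = 0.108). CBS, the enzyme before CTH, was at -0.32 (adjusted p = 0.0955).

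Among 87 candidate genes of the members and lists with a mean of at least 10 CPM, SLC38A1 had the profile closest to SLC7A11 over the 4 libraries. The Euclidean distance between their centred log2 CPM was 0.109, against a median of 0.489 over the candidates. GLRX, a glutathione-dependent oxidoreductase, followed at 0.199 and ASNS, the asparagine synthetase, at 0.201. These distances were computed with the GC and length trends left in, and not for genes outside the candidates. ASNS was at 10.2 and 9.84 CPM in controls and 14.4 and 11.5 CPM with creatine, and its change did not pass (log2 change 0.37, adjusted p = 0.0749).

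Of 9 tested genes of the gamma-glutamyl cycle and glutathione export, 0 rose and 1 fell, against 9.15% and 10.5% of all genes, so the lower count is near the background. The surface peptidase ANPEP, which splits the dipeptide left by extracellular glutathione breakdown, went from 292 and 300 CPM to 232 and 227 CPM (log2 change -0.36, adjusted p = 0.000732, and -0.14 with the trends removed, adjusted p = 0.245). It passed without each library in turn. CHAC2, the paralogue of CHAC1 with slower activity, was at 15.1 and 16.1 CPM in controls and 19.5 and 18.3 CPM with creatine, a log2 change of 0.28 (adjusted p = 0.107). The glutathione exporter ABCC1 was at -0.24 (adjusted p = 0.0672).

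Enzymes that use glutathione had 6 of 21 tested members higher and 0 lower, against 9.15% and 10.5% of all genes, with a median log2 change of 0.12. With the trends removed 1 was higher and 0 lower. GLRX2, the mitochondrial glutaredoxin, rose by 0.42 (adjusted p = 0.0159) and GLRX by 0.33 (adjusted p = 0.0187). The transferases GSTO1 and MGST1 rose by 0.23 and 0.24 (adjusted p = 0.0174 and 0.0371). With the trends removed none of these 4 passed, at 0.05, 0.27, 0.18 and 0.03, with adjusted p of 0.908, 0.140, 0.125 and 0.914. None held without every library. The calls of GLRX and MGST1 were lost without control replicate 1 (adjusted p = 0.0581 and 0.151), creatine replicate 1 (0.124 and 0.0984) or creatine replicate 2 (0.0828 and 0.280). GLRX2 was lost without control replicate 1 or creatine replicate 2 (0.119 and 0.158), and GSTO1 without either creatine library (0.0564 and 0.235).

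The thioredoxin and peroxiredoxin system, which reduces peroxides alongside glutathione, had 2 of 13 tested genes higher and 0 lower, against 9.15% and 10.5% of all genes. The higher share, 15.4%, is near the background. Thioredoxin (TXN) was at 188 and 238 CPM in controls and 262 and 261 CPM with creatine (log2 change 0.30, adjusted p = 0.0122). PRDX5 was at 221 and 272 CPM in controls and 292 and 291 CPM with creatine (0.24, adjusted p = 0.0297). In both genes control library 1 was the low one, and without it neither passed (adjusted p = 0.179 for TXN and 0.366 for PRDX5). PRDX5 was also lost without either creatine library (0.0985 and 0.0844). With the trends removed TXN was at -0.08 (adjusted p = 0.646) and PRDX5 at 0.35 (adjusted p = 0.00784), though PRDX5 missed the threshold with GC content of the longest transcript and length removed (0.32, adjusted p = 0.0507).

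GPX4 and GPX1 need selenocysteine, and of 10 tested genes of selenoprotein synthesis 2 rose and 1 fell, against 9.15% and 10.5% of all genes. SEPSECS, the last enzyme of selenocysteine synthesis on its transfer RNA, was at 17.3 and 19.7 CPM in controls and 27.5 and 22.7 CPM with creatine (log2 change 0.44, adjusted p = 0.0127). TRIT1, a transfer RNA modifier, rose by 0.27 (adjusted p = 0.0387). The selenoprotein P receptor LRP8 went from 41.6 and 39.5 CPM to 29.8 and 32.7 CPM (-0.38, adjusted p = 0.00891). With the trends removed none of these 3 passed (0.23, 0.14 and -0.22, adjusted p = 0.376, 0.435 and 0.222). SEPSECS was lost without control replicate 1 or creatine replicate 1 (0.0692 and 0.243), and LRP8 without creatine replicate 1 (0.126). TRIT1 was lost without any one of the 4 libraries (0.115, 0.0563, 0.124 and 0.238, in the order control 1 and 2, creatine 1 and 2).

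Of 11 tested known regulators of the members, 2 were higher and 3 lower, against 9.15% and 10.5% of all genes. KEAP1, which marks NRF2 for degradation, went from 72.4 and 74.9 CPM to 57.6 and 59.5 CPM (log2 change -0.33, adjusted p = 0.00568). BAP1, which represses SLC7A11, fell by 0.35 (adjusted p = 0.00181). BACH1, a repressor of NRF2 targets, rose by 0.24 (adjusted p = 0.0194). NFE2L2, the gene of NRF2 itself, rose by 0.21 (adjusted p = 0.0354). With the GC and length trends removed NFE2L2 was at 0.09 and did not pass (adjusted p = 0.515). ATF4 itself was at 824 and 848 CPM in controls and 759 and 818 CPM with creatine, with a log2 change of -0.08 (adjusted p = 0.382).

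With the trends removed KEAP1, BAP1 and BACH1 did not pass (-0.09, -0.12 and 0.04, adjusted p = 0.609, 0.342 and 0.819). KEAP1 was lost without creatine replicate 1 (adjusted p = 0.0667). BACH1 was lost without control replicate 2, creatine replicate 1 or creatine replicate 2 (0.112, 0.135 and 0.113). BAP1 passed without each library in turn.

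CHAC1 and SLC7A11 are both targets of ATF4 and took opposite directions, and of 13 other ATF4 targets 3 were higher, 1 lower and 9 did not pass, against 9.15% and 10.5% of all genes. With the trends removed 3 were higher and 0 lower. NUPR1, a stress-induced chromatin factor, went from 31.6 and 36.3 CPM to 44.8 and 49.4 CPM (log2 change 0.47, adjusted p = 0.00223). DDIT3, the factor CHOP, rose by 0.28 (adjusted p = 0.00864) and MTHFD2, a mitochondrial folate enzyme, by 0.24 (adjusted p = 0.00885). SESN2, which senses leucine, fell from 174 and 186 CPM to 138 and 148 CPM (-0.33, adjusted p = 0.00253). The median log2 change of these targets was 0.01.

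Of the ATF4 targets named, NUPR1 passed without each library and with the trends removed (0.59, adjusted p = 0.00784), but not with GC content of the longest transcript and length removed (0.58, adjusted p = 0.0507). DDIT3, MTHFD2 and SESN2 did not pass with the trends removed (0.22, 0.10 and -0.12, adjusted p = 0.0811, 0.373 and 0.351). DDIT3 was lost without control replicate 1 (adjusted p = 0.0751), MTHFD2 without either creatine library (0.0566 and 0.133) and SESN2 without creatine replicate 1 (0.0556).

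**Figure D5:**
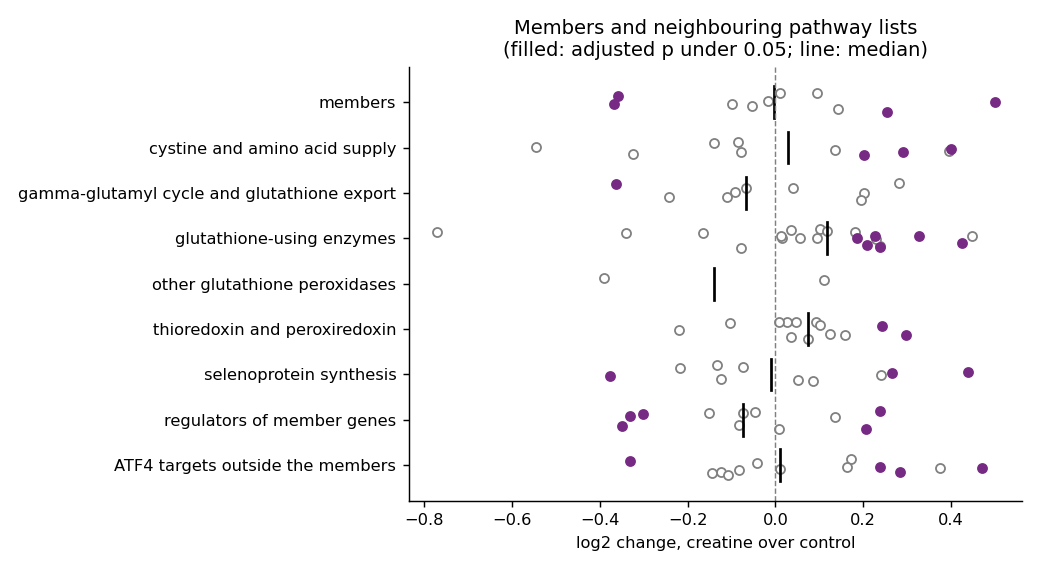
Log2 change of each tested gene in the 10 members and the 8 neighbouring pathway lists, creatine over control, 1 point per gene. Filled points have an adjusted p under 0.05 and vertical lines are medians. The 4 called members lie at both ends of their row, and the called genes among glutathione-using enzymes are all higher.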

How the data were processed

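The authors deposited raw counts of reads per gene symbol for each of the 4 libraries, with a gene length in bases. Per the labels' protocols, a TruSeq kit was used on total RNA. HISAT2 2.2.1, FastQC 0.11.9, featureCounts, DESeq2 and the GRCh38 build are named in the submitters' processing notes. Not given in the sources used here were the annotation release, the strand setting and the handling of reads with several matches.

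The test was edgeR 4.0.16 under R 4.3.3 on these counts (filterByExpr, TMM scaling with factors of 0.993 to 1.01, quasi-likelihood test, group as the only term). The Benjamini-Hochberg adjustment ran over the 15302 genes that passed the filter, and 0.05 was the threshold. CPM and FPKM use the TMM-scaled library sizes and the deposited length. Alternatives were DESeq2 1.42.0, limma-voom (limma 3.58.1), robust edgeR, other scalings and filters, a replicate block, each library left out, and smooth trends of log2 CPM on transcript GC content and log2 length (mgcv 1.9.3) entered as offsets. GC content was pooled over the GENCODE 29 transcripts of a symbol, and 23 tested genes without it were given the median. The procedure was tested on simulated counts.

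Libraries of a group differed by more than sampling noise (chi-square per degree of freedom 16.1 for controls and 8.97 for creatine). Sequences are from RefSeq, and gene positions from GENCODE 29 on GRCh38. Intervals are from the quasi-likelihood fit, and the floor of 3 counts covers counting error only. Members and lists were chosen with earlier results of these data known. Of each list, up to 4 called genes with the smallest adjusted p are named, except 1 regulator that is not reported here.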

Additional observations from a re-analysis of the deposited data

How the results depend on the processing

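Changes of the members were recomputed 178 times over 21 settings, 15 of them set out beforehand. The other 6 were added after seeing the data, 2 reading GC content from the longest transcript and 4 leaving out a library with the trends removed. Changes under those 4 were kept only for SLC7A11 and GSR, the 2 members that passed with the trends removed. These 2 therefore have 21 values each and every other member has 17. Of the 178 values, 139 kept their sign and their side of the threshold. DESeq2, limma-voom, robust edgeR, both other filters and the other scalings changed no member's call, and GPX1 alone changed sign under them (8.79e-05 with upper-quartile scaling). A pairing of libraries by replicate number was not seen (correlation of deviations over genes -0.0228), which does not exclude one. The replicate block gave 3795 changed genes against 3001, 4 members as before, and 30 genes of the pathway lists against 24.

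With 1 library left out, changed genes numbered 1162 to 3116, changed members 2 to 4 and changed pathway genes 9 to 23. The log2 ranges were then -0.023 to 0.030 for SLC3A2, -0.14 to 0.026 for GSS, -0.42 to -0.33 for GSR, -0.21 to 0.0057 for GPX4, -0.088 to 0.041 for GPX1 and 0.19 to 0.31 for GPX8. The lowest counts were those without creatine replicate 1.

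With GC and length trends removed, 296 genes, 2 members and 7 pathway genes passed. The log2 changes were -0.11 for GCLM, 0.016 for GSS, -0.17 for CHAC1, 0.10 for GPX4, 0.14 for GPX1, 0.020 for GPX8, -0.023 for SLC38A2 and -0.081 for TXN. With the GC trend alone removed, 279 genes, 1 member and 7 pathway genes passed. The log2 changes were 0.23 for SLC7A11, -0.13 for GCLM, 0.081 for GSS, -0.12 for CHAC1, 0.15 for GPX4, 0.23 for GPX1, 0.024 for GPX8, -0.053 for SLC38A2 and -0.0018 for MGST1.

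With GC content read from the longest transcript and length included, 34 genes, 0 members and 0 pathway genes passed edgeR's test (5 and 21 had an unadjusted p under 0.05). The log2 changes were 0.30 for SLC7A11, -0.16 for GCLM, -0.37 for GSR, -0.22 for CHAC1, 0.045 for GPX4, 0.098 for GPX1, 0.070 for GPX8 and -0.042 for SLC38A2. With that GC content alone, 460 genes and 8 pathway genes passed. The log2 changes were -0.14 for GCLM, 0.066 for GSS, -0.12 for CHAC1, 0.14 for GPX4, 0.22 for GPX1, 0.068 for GPX8 and -0.028 for SLC38A2.

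With both trends removed and 1 library left out as well, changed genes numbered 324, 560, 280 and 373 and changed members 2, 3, 0 and 2, in the order control 1, control 2, creatine 1 and creatine 2. Without creatine replicate 1, 5 members had an unadjusted p under 0.05, with SLC7A11 at 0.26 and GSR at -0.33. The cause of these differences was not tested. For GCLC the 95% interval of -0.09 to 0.37 bounds what these libraries can show.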

Other observations

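With the GC and length trends removed, 7 genes of the 8 neighbouring lists passed, and 4 of these had not passed before. The small MAF protein MAFK, a DNA-binding partner of NRF2, was at 77.1 and 87.5 CPM in controls and 90.4 CPM in both creatine libraries. Its log2 change was 0.14 (adjusted p = 0.240) and 0.43 with the trends removed (adjusted p = 0.0075). The glutathione transferase GSTP1 went from 0.10 to 0.27 (adjusted p = 0.388 and 0.0276), TRIB3, a feedback inhibitor of ATF4, from 0.01 to 0.25 (adjusted p = 0.933 and 0.0217), and ATF3 from 0.17 to 0.23 (adjusted p = 0.0632 and 0.0428). These 4 were chosen after their values were seen. The other 3 were SLC38A1, PRDX5 and NUPR1. With GC content read from the longest transcript and length included, 0 genes of the lists passed.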
